A study of Mus musculus with 5 samples.

Results

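Of 178385 distal chromatin regions in mouse hippocampal nuclei, 2501 held an accessibility peak in each of 3 libraries labelled as lacking monoacylglycerol lipase (MAGL) and none in the wild-type or the unmodified 5xFAD library, which is 1.4% of all distal regions. The members were chosen by the peak lists themselves: the peaks of all 5 libraries were merged into 220645 regions wherever they overlapped by 1 bp or more, and a region counted as distal when it did not overlap any gene's listed position widened by 1 kb. Whether a library lists a region is therefore no finding here, and the height of a peak, which decides whether a caller lists it, is given as a description with no test. The 5 libraries were wild type (WT), 5xFAD (TG), and 5xFAD with MAGL-KO labelled as astrocyte-specific (TG-aKO), neuron-specific (TG-nKO) or global (TG-tKO). All are hippocampus, carry the same batch name, and hold RNA and accessible DNA from the same nuclei. 5xFAD is a transgenic mouse model of Alzheimer's disease with amyloid plaques, and the 3 knockout libraries share that background with TG. The driver of the cell-specific deletions, the age and the number of animals are not given in the sources used here. With 1 library per group there was no replicate, so no difference between groups was tested, and every interval below is a 95% interval for counting error only.

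MAGL, encoded by Mgll, breaks down the endocannabinoid 2-arachidonoylglycerol, which damps transmitter release through the cannabinoid receptor Cnr1, and in brain it also supplies arachidonic acid for prostaglandins. A distal accessible region is a stretch of DNA away from gene starts where nucleosomes are open enough for the transposase to cut, often an enhancer, and such regions differ between cell types far more than promoters do. In hippocampal neurons many distal regions open after strong activity, when AP-1 factors of the Fos and Jun families bind their short palindromic site.

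The libraries held 4050 to 7498 nuclei and 83726719 to 105867030 cut sites in 157482 to 180784 listed peaks, and the median nucleus had 10688 to 14939 cut sites. Cut sites were counted in each library over its own peaks alone, so a member has no value in WT or TG, and a level of 0 there must not be assumed. Pairs of libraries shared 29 to 63 nucleus barcodes, at most 1.16% of the smaller library. The labels could not be checked on Mgll: in astrocyte-like nuclei its RNA level was 348 CPM (280 to 428) in TG, 483 (387 to 595) in TG-aKO and 430 (321 to 564) in TG-tKO, and in the excitatory-like nuclei not called granule-like it was 68.0 in TG, 81.9 in TG-nKO and 70.1 in TG-tKO. CPM here is a gene's UMIs, or a region's cut sites, scaled to a common total of the UMIs, or of the cut sites in listed peaks, of the library or class of nuclei. No loss of Mgll RNA was seen in any library labelled MAGL-KO, and the labels do not say which exon was removed. Each direction below is therefore that of the library so labelled.

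Whole-region sequence could not be read without a genome, so sequence is shown where a member contains all of a RefSeq gene-start window (GRCm38.p6; 10 members) or at least 200 bases of a GENCODE vM21 non-coding exon (GRCm38; 26 members). These are few and are not a sample of all members, since most lie in introns or between genes. The 10 members with a RefSeq window hold an annotated gene start, so distal here means away from the listed gene positions only. Of 11 windows with the AP-1 motif, the 6 of the highest members by mean height are printed below with the motif, TGANTCA, in capitals, because the motif counts rest on windows of this kind. They are read 5′ to 3′ on the transcript's strand, and both strands were searched. The first 4 are from GENCODE exons and the last 3 from RefSeq windows. The last, 1700030C10Rik, is the highest member whose window holds none of the 10 motifs searched.
9930038B18Rik (chr12:8875698-8875897, minus strand): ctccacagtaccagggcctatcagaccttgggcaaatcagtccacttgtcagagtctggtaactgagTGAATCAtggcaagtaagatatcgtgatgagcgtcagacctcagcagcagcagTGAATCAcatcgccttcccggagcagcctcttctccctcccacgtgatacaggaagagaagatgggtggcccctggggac
Gm44235 (chr6:77472095-77472294, minus strand): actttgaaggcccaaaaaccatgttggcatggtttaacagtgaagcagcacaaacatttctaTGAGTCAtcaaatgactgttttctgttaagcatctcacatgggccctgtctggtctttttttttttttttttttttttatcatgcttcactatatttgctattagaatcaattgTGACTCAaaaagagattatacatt
Gm20631 (chr1:150666019-150666218, plus strand): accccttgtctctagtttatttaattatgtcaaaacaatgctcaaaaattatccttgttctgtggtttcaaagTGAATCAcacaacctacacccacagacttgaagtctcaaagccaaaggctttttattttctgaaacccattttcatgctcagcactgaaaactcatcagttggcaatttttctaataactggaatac
Gm45876 (chr8:126059567-126059766, minus strand): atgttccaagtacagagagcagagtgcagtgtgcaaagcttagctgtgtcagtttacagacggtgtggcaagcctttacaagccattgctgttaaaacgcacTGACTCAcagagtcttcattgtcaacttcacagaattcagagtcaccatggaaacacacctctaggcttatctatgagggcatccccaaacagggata
Gm29906 (chr1:70918460-70918759, minus strand): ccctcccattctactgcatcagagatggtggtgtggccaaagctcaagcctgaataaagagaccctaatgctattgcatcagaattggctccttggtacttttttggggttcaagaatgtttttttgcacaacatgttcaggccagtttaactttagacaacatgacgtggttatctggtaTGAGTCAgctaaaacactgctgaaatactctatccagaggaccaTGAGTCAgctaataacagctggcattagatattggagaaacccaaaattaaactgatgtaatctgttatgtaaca
Gm39631 (chr1:41533262-41533561, minus strand): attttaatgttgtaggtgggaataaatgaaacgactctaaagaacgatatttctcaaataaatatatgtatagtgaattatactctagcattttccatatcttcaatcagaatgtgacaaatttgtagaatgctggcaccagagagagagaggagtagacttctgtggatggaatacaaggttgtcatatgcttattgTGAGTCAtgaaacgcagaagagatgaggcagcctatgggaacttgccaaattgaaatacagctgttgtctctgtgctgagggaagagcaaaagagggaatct
1700030C10Rik (chr12:20815730-20816029, minus strand): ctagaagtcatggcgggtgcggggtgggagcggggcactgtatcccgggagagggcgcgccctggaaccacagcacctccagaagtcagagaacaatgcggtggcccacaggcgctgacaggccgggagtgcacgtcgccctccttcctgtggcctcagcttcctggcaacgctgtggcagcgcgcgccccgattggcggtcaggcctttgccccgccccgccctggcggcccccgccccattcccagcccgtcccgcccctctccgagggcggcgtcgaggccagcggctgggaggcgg

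In the central 200 bases of the exons, 8 of 26 members held TGANTCA, a share of 30.8% (exact binomial interval 14.3 to 51.8%). The same search found it in 232 of 2306 distal regions (10.1%), in 9.88% of regions listed in all 5 libraries, in 61 of 583 regions listed in the 3 knockout libraries with a mean height up to 3 CPM (10.5%), and in 1 of 25 regions listed in WT and TG alone. In the 300-base RefSeq windows 3 of 10 members held it (30.0%, interval 6.67 to 65.2%), beside 137 of 1104 distal regions (12.4%), 4 of 15 regions listed in TG and the knockout libraries but not WT (26.7%) and 7.81% of all 32851 windows in the table. In the exon windows the regions listed in TG and the knockout libraries but not WT held it in 9.30%. The intervals cover counting error only, and with this few windows the shares are descriptions with no test. Of the other motifs searched in the exons, CAGATG, an E-box read by NEUROD-type factors, was in 4 of 26 members (15.4%) and 23.7% of distal regions. No member window of either kind held TGACGTCA (CRE), GCGTGGGCG (EGR), MEF2, AGGTGGCAG (CTCF core), NFI or RFX, which says only that these letters are not in these windows. GAGGAAGT (PU.1) was in 1 exon window and AACAAAG (SOX) in none. Median GC content was 45.5% in the members' exon windows and 47.5% in those of distal regions. In the RefSeq windows it was 42.8% and 50.0%. A match is a description of letters and not of binding.

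The members were low peaks, as were the other regions that WT or TG did not list. Their median height was 1.71 CPM in TG-aKO, 1.68 in TG-nKO and 1.65 in TG-tKO, where the median of all distal peaks was 3.10, 2.69 and 2.68. A member of median height thus stood at the 14.7th, 22.8th and 22.1st percentile of its library's own distal peaks and rested on 158, 144 and 175 cut sites. Only 7.52% of members in TG-aKO, 13.4% in TG-nKO and 10.8% in TG-tKO were above the distal median. Regions listed in TG and the knockout libraries but not in WT had medians of 1.92, 1.82 and 1.82, and those missing in TG alone had 1.90, 1.79 and 1.83. The 3 libraries gave like heights for a given member: the highest was a median of 1.26 times the lowest, and in 98.3% of members it was within 2-fold, against a median of 1.17 in regions listed in all 5 libraries.

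**Figure D1:**
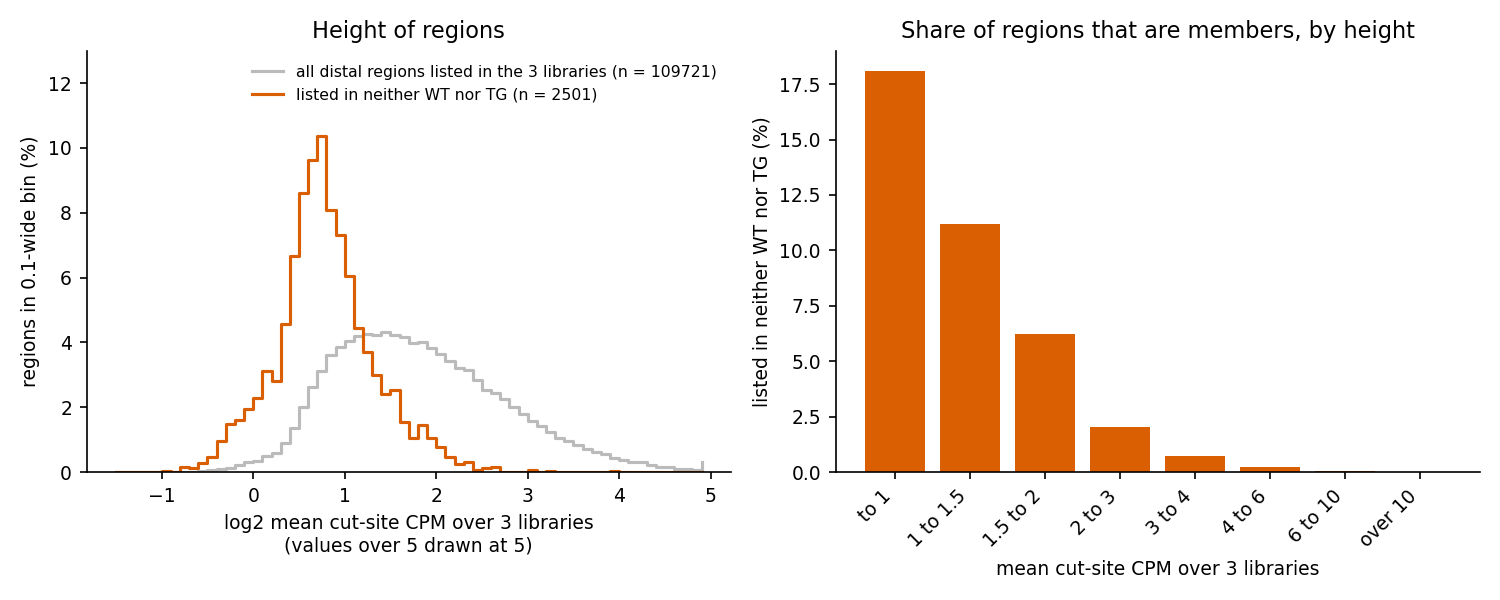
Left, the share of regions (y axis, percent) by log2 of the mean cut-site CPM over TG-aKO, TG-nKO and TG-tKO (x axis) for all 109721 distal regions those libraries list and for the 2501 that WT and TG do not list. Right, the percent of such regions that are members, by height, which falls from 18.1% in the lowest bin to 0.0128% in the highest.

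Low regions were more often members. Among regions listed in all 3 knockout libraries, members made up 177 of 978 (18.1%) where the mean height was up to 1 CPM and 658 of 5884 (11.2%) from 1 to 1.5. Their share was 6.24% from 1.5 to 2, 2.02% from 2 to 3 and 0.723% from 3 to 4. Above 10 CPM it was 1 region, 0.0128%. Regions missing in TG alone fell with height too, from 198 of the same 978 regions to 8 of 7794 above 10 CPM, and those missing in WT alone from 105 to 4. Some members lay beside a peak of WT or TG that did not overlap them: 305 (12.2%) were within 500 bp of one and 549 (22.0%) within 1 kb, with a median gap of 3580 bp. Regions listed in WT and TG alone, the mirror set, had 14.6%, 24.6% and 2750.5 bp.

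At the distance limit, the members just inside were 1000 bp from the listed start of Pop5, a subunit of RNase P (chr5:115234207-115234835), with 5.80, 4.39 and 5.07 CPM in TG-aKO, TG-nKO and TG-tKO, and 1015 bp from Nnat, an imprinted proteolipid of brain (chr2:157561146-157561981), with 4.07, 3.39 and 3.56. Just outside were regions 995 bp from Gm49978, with 2.06, 2.13 and 2.12, and 980 bp from Tnfrsf21, the death receptor DR6 (chr17:43017536-43018288), with 5.20, 4.60 and 5.69. In all, 395 regions with the same listing lay within 1 kb of a gene position and are not members. Both sides of the limit hold regions above the members' median height.

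The 12 highest members by mean height follow. The tallest, 3.00 kb from Gm50405 on chromosome 18, had 14.7 in TG-aKO, 17.3 in TG-nKO and 14.3 in TG-tKO. In TG-aKO and TG-nKO it was higher in non-neuronal nuclei, at 30.5 and 27.1, than in the library as a whole. In TG-tKO the non-neuronal value was 15.1, from 40 cut sites. That is close to the library's 14.3 and below the 16.3 of inhibitory nuclei. An intronic member near Slitrk5, a synaptic adhesion protein (chr14:111676900-111677656), had 9.72, 8.20 and 9.93. An intronic member near Tent4a, a poly(A) polymerase (chr13:69522117-69523008), had 9.01, 7.93 and 7.65. All 3 stood far above the members' median in each library.

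The next members by height lay near Ptprs, a receptor phosphatase of axons that binds proteoglycans (chr17:56406394-56407399, between genes, 54.8 kb away), with 8.20, 8.50 and 7.75, and near Zbtb40, a zinc-finger protein (chr4:137044170-137044977, intron), with 6.53, 6.60 and 6.13. Near Brsk2, a kinase of neuronal polarity (chr7:141952690-141953579, intron), the values were 5.86, 6.74 and 6.66. Near Gm15775 (chr8:124360547-124361501) they were 6.17, 6.40 and 6.07. Near Lamc1, the laminin gamma 1 chain (chr1:153333827-153334444), they were 6.29, 4.94 and 7.15. No library was the highest or the lowest throughout these members.

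Near Sec14l1 (chr11:117153858-117154784, intron) the heights were 6.43, 5.50 and 5.89. A member closest to Gm12970 but lying in Sdc3, the neuronal proteoglycan syndecan-3 (chr4:130814725-130815527), had 5.11, 6.81 and 5.45. Gm16701 (chr1:166939851-166940771) had 5.49, 5.56 and 6.09, and Gtdc1 (chr2:44556868-44557832), 199 kb away, had 5.30, 5.29 and 6.01. At the other end were 2810471M01Rik (chr11:28655426-28655910) with 0.51, 0.45 and 0.56, Pcdh15 (chr10:73743918-73744305) with a mean of 0.593 and Gm29461 (chr1:98167037-98167516) with a mean of 0.601. The heights of single members thus spanned a wide range around a low median.

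By position, 1241 members (49.6%) lay between genes and 1131 (45.2%) in introns of GENCODE vM21, against 44.9 and 49.0% of all distal regions. Non-coding exons held 57 (2.28%, against 2.27%), coding exons 43 (1.72%, against 2.02%) and untranslated regions 29 (1.16%, against 1.88%). The median member was 941 bp wide and 37.8 kb from the nearest listed gene start, where regions listed in all 5 libraries were at 31.0 kb and all those listed in the 3 knockout libraries at 31.2 kb. Of the members, 449 were within 10 kb of a gene's listed start, 1893 (75.7%) within 100 kb and 50 beyond 500 kb. Chromosome 1 held the most, 227, which is 1.64% of its distal regions. The X chromosome held 52, 1.56% of its distal regions, beside 1.40% over the genome. Another member lay within 10 kb of 252 members (10.1%), and no run within that distance held more than 3. Of the regions listed in WT and TG alone 7.86% had such a neighbour, and their longest run was also 3.

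They were nearest to 2129 different genes, 1826 of which had 1 member, 249 had 2, 40 had 3, 13 had 4 and 1 had 5. That one was Pcdh15, a protocadherin of hair-cell tip links that is also expressed in brain, whose 5 members all lay in its introns over 698 kb, with mean heights of 0.59 to 1.72. Of the genes with 4 members, Tenm2 is a teneurin of synaptic adhesion, Sphkap an anchor of protein kinase A, Galnt18 a glycosyltransferase with members 13.1 to 70.3 kb away, and Lrrtm1 a synaptic organiser encoded inside Ctnna2. Gm28189, Gm15893 and Gm14061 are non-coding or predicted genes with 4 each, and 3 members of Gm15893 lay within Msi2, an RNA-binding protein. The highest single members at these genes had a mean of 2.98 CPM at Sphkap, 2.89 at Galnt18 and 2.71 at Tenm2.

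The gene lists were looked up among genes within 100 kb of a member, against 1727 of all 32232 genes, 5.36%. Of 38 activity-induced genes 2 were nearest to a member (5.26%), the transcription factor Egr2 and the G-protein regulator Rgs4. Of 29 genes altered in granule cells by seizures 6 were (20.7%): Spock1, a proteoglycan, Calb1, the calcium buffer calbindin, Acvr1c, an activin receptor, Crh, the stress neuropeptide, Vwf, and Trh, the thyrotropin-releasing hormone. Of 14 endocannabinoid genes 2 were, Cnr1 and the lipid-sensing receptor Ppara, and of 12 granule-cell identity genes 2 were, C1ql2, a secreted synaptic organiser, and Pdzd2. The activity list was thus at the level of all genes, and in the others a share rests on 2 to 6 genes, of which the seizure list was put together with results of these libraries in view. Crh, Vwf and Trh had almost no RNA in granule-like nuclei of the knockout libraries.

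The members near list genes differed in height. Egr2 (chr10:67523752-67524666, 13.2 kb) had 1.42, 1.48 and 1.60 CPM in TG-aKO, TG-nKO and TG-tKO. Rgs4 (chr1:169750085-169750982) had 2.09, 2.63 and 2.40, and Acvr1c (chr2:58419168-58420276, 61.3 kb, in an intron of Acvr1) had 1.46, 2.05 and 2.11. Higher were the members of Vwf, the clotting protein von Willebrand factor (chr6:125588944-125589851) with 3.72, 2.98 and 3.15 and C1ql2 (chr1:120326224-120327149, 13.4 kb) with 3.58, 4.24 and 3.37. That of Pdzd2 (chr15:12662072-12662967) had 2.71, 2.92 and 2.26. Ppara (chr15:85712474-85713399) had 5.10, 5.26 and 4.87 and 10.3, 5.60 and 7.54 in non-neuronal nuclei. Cnr1 (chr4:33838110-33839088, 85.5 kb) had 1.22, 0.92 and 1.35, below the members' median in each library.

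The nuclei were next divided by their RNA into clusters, which were called granule-like, other excitatory-like and so on from fixed marker genes, and cut sites were summed per class and library. Granule-like nuclei numbered 1706, 1147 and 2051 in TG-aKO, TG-nKO and TG-tKO, other excitatory 2484, 1576 and 3241, inhibitory 750, 534 and 893, oligodendrocyte 336, 295 and 228, oligodendrocyte precursor 88, 115 and 90, microglia 122, 50 and 96, and astrocyte 47, 28 and 32. All nuclei of a library share its animals, so classes are not independent of each other and are compared as values.

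The members drew more of the cut sites of neurons than of other cells. All 2501 together drew 4711, 4697 and 4575 CPM over all nuclei of named classes in TG-aKO, TG-nKO and TG-tKO. They drew 4723, 4882 and 4541 in other excitatory and 4726, 4675 and 4516 in inhibitory nuclei, close to those values. In non-neuronal nuclei they drew 2217, 1904 and 2093, or 0.471, 0.405 and 0.457 times the value of all named nuclei. Regions listed in all 5 libraries were also lower there, at 0.602, 0.608 and 0.609 times. Microglia had 2377, 1984 and 2198, oligodendrocytes 1995, 1700 and 1813, precursors 2417, 2266 and 2379, and astrocytes 2236, 1622 and 1516. Vascular nuclei, only 18, 23 and 22, had 3911, 3109 and 3745, which in TG-nKO and TG-tKO is above the 3022 and 3545 of most granule-like nuclei. For the median member the ratio of a class to all named nuclei was 1.00, 0.93 and 0.98 in granule-like nuclei, 1.01, 1.05 and 1.01 in other excitatory and 0.95, 0.94 and 0.92 in inhibitory. The neuronal classes thus differed little at the median.

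**Figure D2:**
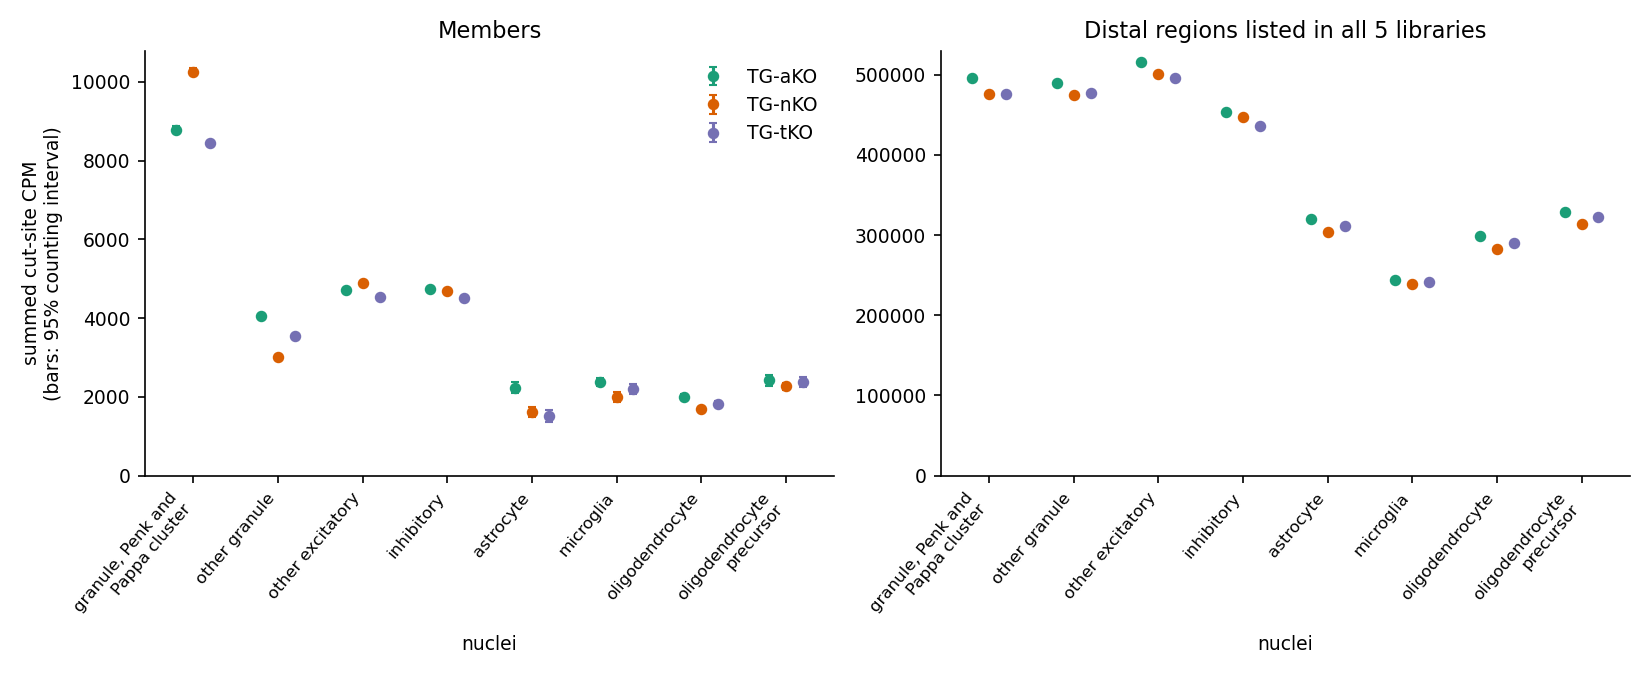
Summed cut-site CPM (y axis, starting at 0) by class of nuclei (x axis) in the 3 knockout libraries (colours), with 95% counting intervals as bars, for the members on the left and for regions listed in all 5 libraries on the right. The members are highest in the Penk and Pappa granule cluster, at 8786, 10250 and 8433, where the other regions are level with other granule-like nuclei.

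For each class, members were named from those with the highest ratio of the class to all named nuclei. That they stand out in that class follows from this choice. Near Xirp1 (chr9:120042925-120043858) microglia had 84.6, 68.8 and 51.6 CPM in TG-aKO, TG-nKO and TG-tKO against 2.31, 1.46 and 1.26 in all named nuclei. Near Ptprz1, a receptor phosphatase of precursor cells (chr6:22795476-22796219), oligodendrocyte precursors had 30.1, 38.5 and 34.9 against 1.28, 1.16 and 1.07. Near Gramd4 (chr15:86069990-86070936) astrocytes had 43.9, 50.1 and 38.1 against 3.78, 4.06 and 3.74. At least 30 cut sites in the class were required, which 54 members reached for oligodendrocytes, 29 for microglia, 17 for precursors and 3 for astrocytes. In classes this small a member reaches that number mostly by being high there, so the counts say how many could be examined and not how many stood out. Among inhibitory nuclei the region near Map3k7 (chr4:31320692-31321570, 642.5 kb away) had 6.95, 6.18 and 7.82 against 1.56, 1.59 and 1.54. In other excitatory nuclei the steepest member, near Cyp2b10, was 1.53 times the value of all named nuclei, in a class that holds most of the named cut sites and so cannot give a large ratio.

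Within the granule-like nuclei the members were highest in 1 cluster. It is a cluster with high Penk and Pappa RNA, singled out after its values were seen, and it held 365, 299 and 652 nuclei in TG-aKO, TG-nKO and TG-tKO but 25 in WT and 19 in TG. Those numbers rest on genes that differ between the libraries and are given only because they move with the listing. In it the members drew 8786 (8701 to 8872), 10250 and 8433 CPM, against 4054, 3022 and 3545 in the other granule-like nuclei. The ratio was 2.17 (2.14 to 2.19), 3.39 and 2.38. These are the cut sites whose peaks chose the members, so the ratio is a description with no test. Regions listed in all 5 libraries had ratios of 1.01, 1.00 and 1.00 in the same nuclei, and regions listed in TG and the knockout libraries but not in WT had 1.36, 1.79 and 1.47. Among the clusters with at least 25 nuclei, 36, 32 and 39 in the 3 libraries, this one ranked first for the members in each. In TG-aKO and TG-nKO an excitatory cluster scored highest for CA1 markers ranked next, at 6041 and 6557 CPM. In TG-tKO it was at 5880, rank 4. It held 2.33% of kept nuclei in WT, 2.10% in TG and 4.13, 4.37 and 4.53% in the knockout libraries. Its numbers thus moved with the listing too. Another excitatory cluster scored highest for CA1 markers was at rank 3 in each library, at 5380, 6082 and 5992 CPM. It held 1.37% of kept nuclei in WT, 1.35% in TG and 2.15, 1.18 and 1.57% in the knockout libraries. Its share was thus above WT and TG in TG-aKO and TG-tKO but below both in TG-nKO. In TG-tKO a small granule-like cluster of 25 nuclei was at rank 2, with 7072 CPM. With 3 and 5 nuclei in TG-aKO and TG-nKO it was not ranked there, and it had 50 nuclei in WT and 24 in TG. Its share of granule-like nuclei was 3.07% in WT and 1.76% in TG. In the knockout libraries the share was lower, at 0.18, 0.44 and 1.22%, so its numbers moved against the listing. The other granule-like clusters of TG-tKO were at 2849 to 3932.

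The ratio depends on which nuclei make the cluster. With likely doublets kept, the new cluster sharing most nuclei with it held 2499 nuclei, only 37.8% of them from the original, and its ratio was 1.96, 1.21 and 1.48, whereas the purest new cluster, 414 nuclei all from the original, gave 2.03, 3.34 and 2.48. That purest cluster held 26, 202 and 186 nuclei of TG-aKO, TG-nKO and TG-tKO, and its median member was at 0.28, 1.31 and 1.29 times the value of all named nuclei, where the original cluster had 1.21, 1.24 and 1.20. The TG-aKO value thus comes from 26 nuclei. Xist, a transcript of the inactive X, was detected without Y-linked transcripts in 97.2, 97.6 and 97.9% of the cluster's called nuclei in the 3 libraries and in 53.7, 74.8 and 37.0% of the other granule-like nuclei. Most of this cluster in those libraries thus came from female animals. Of its few called nuclei in WT 73.9% were Xist nuclei. In TG it was 27.8%, 5 nuclei against 13 with Y-linked transcripts. Using Xist nuclei alone on both sides, the ratio was 1.93, 3.45 and 1.98 in the knockout libraries. Outside the cluster, too, the members were higher in Xist nuclei. In other excitatory nuclei the members' summed CPM in Xist nuclei was 1.09, 1.29 and 1.35 times that in nuclei with Y-linked transcripts, in inhibitory nuclei 1.16, 1.30 and 1.253 times, and in the other granule-like nuclei 1.30, 1.06 and 1.41 times, where regions listed in all 5 libraries were between 0.96 and 1.08 times in every group. The part of sex in the listing was not tested. Each library held nuclei of both kinds and thus more than 1 animal, and whether the cluster came from all of them or from some was not tested.

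Member by member, 678 of 2501 (27.1%) were at least 2-fold higher in CPM in the cluster than in other granule-like nuclei in each of TG-aKO, TG-nKO and TG-tKO, after adding 0.5 to both. Over all 109721 distal regions listed in the 3 knockout libraries the share was 4.27%, and it was 3.38% in those listed in all 5. It was 9.12% in regions listed in TG and the knockout libraries but not WT, and 9.22% in those listed in WT and the knockout libraries but not TG. Only 17 members (0.680%) were as much lower, against 3.2%. Since low regions give noisy ratios, the middle 1250 members by height, from 1.39 to 2.11 CPM, were set beside regions of the same height: 376 (30.1%) were higher, against 484 of 19231 (2.52%). With 2 added in place of 0.5 the count fell to 386 of 2501 (15.4%, against 2.23%), and with Xist nuclei alone it was 470 (18.8%, against 2.46%). All of these counts use the cut sites whose peaks chose the members, in libraries that hold nearly all of the cluster's nuclei, and are descriptions.

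**Figure D3:**
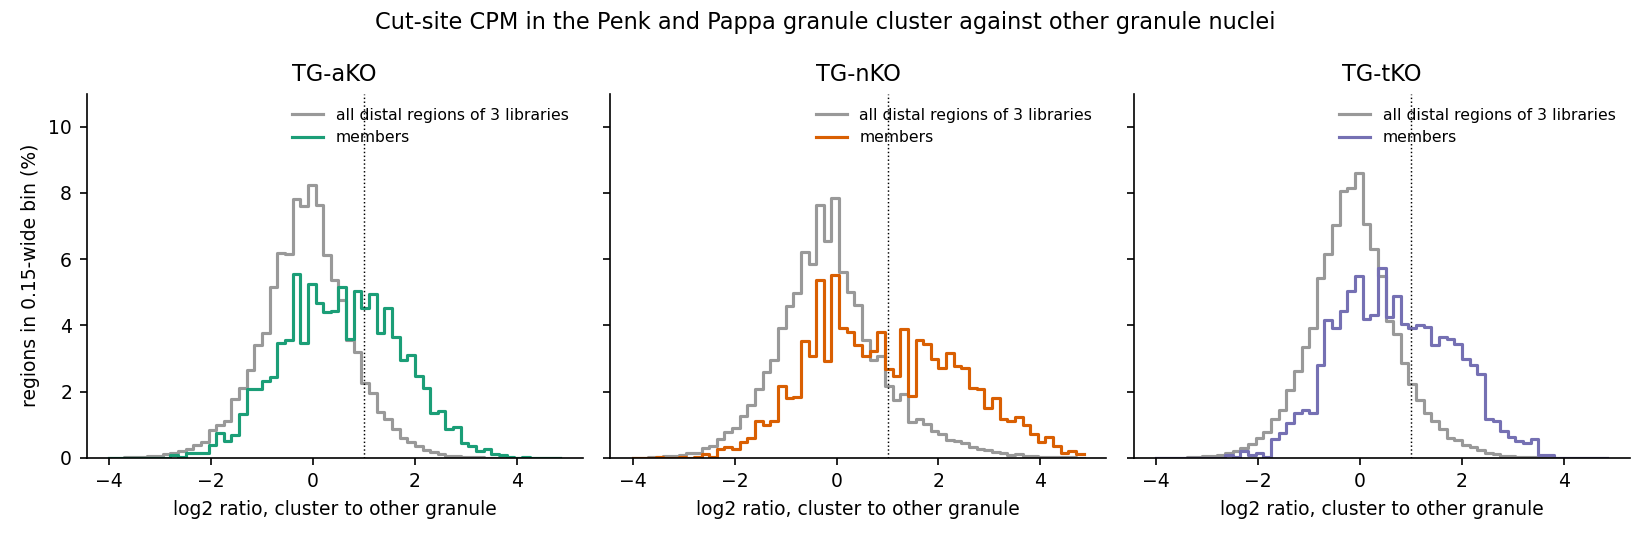
Share of regions (y axis, percent) by log2 ratio of cut-site CPM in the Penk and Pappa cluster to other granule-like nuclei (x axis), 1 panel per library, for members (colour) and all 109721 distal regions listed in the 3 libraries (grey). The dotted line marks a 2-fold ratio in 1 library, and the median log2 ratio of the members is 0.56, 0.84 and 0.59 where that of all such regions is -0.12, -0.19 and -0.14.

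Of 5 groups of nuclei, the cluster was the highest for 1206 members (48.2%). It was so for 19.3% of all regions listed in the 3 knockout libraries and 18.1% of those listed in all 5. Both of these sets are taller than the members. Among regions listed in TG and the knockout libraries but not WT, which are nearer in height, the share was 24.0%. Other excitatory nuclei were the highest for 681 members (27.2%), inhibitory for 343 (13.7%), the other granule-like nuclei for 154 (6.16%) and non-neuronal nuclei for 117 (4.68%). Over all regions listed in the 3 knockout libraries these shares were 35.1, 13.5, 20.2 and 11.9%. In regions listed in TG and the knockout libraries but not WT they were 38.3, 18.7, 8.69 and 10.2%. The 678 members at least 2-fold higher had a median of 7.36 CPM in the cluster and 1.15 in the other granule-like nuclei. The other 1823 had 1.38 and 1.12. The 678 were picked by the ratio of these same values, so this gap was fixed in advance. The 678 lay between genes in 56.2% and at a median of 44.0 kb from a gene start, against 47.2% and 36.6 kb for the others. Without the cluster the remaining nuclei still had cut sites in members: the median height went from 1.70 to 1.61 in TG-aKO, from 1.68 to 1.54 in TG-nKO and from 1.66 to 1.55 in TG-tKO. The cluster gave 11, 14.3 and 13.5% of the members' cut sites and 5.92, 6.55 and 7.34% of those in all peaks, and the part that its nuclei have in the listing was not tested.

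The steepest members were ordered by the lowest of their 3 log2 ratios of the cluster to other granule-like nuclei. At least 30 cut sites in the cluster over the 3 libraries were required. The 3 that follow are examples and not the 3 steepest. The median log2 ratio of all members was 0.56, 0.84 and 0.59. Near Gm33201 (chr6:100049908-100050851) the cluster had 12.9, 28.6 and 16 CPM in TG-aKO, TG-nKO and TG-tKO and the other granule-like nuclei 0.69, 0.90 and 1.10. Near Gm42476 (chr3:81030032-81031003) the values were 11, 24.6 and 11.4 against 0.38, 0.60 and 0.58. Near Acaca, the acetyl-CoA carboxylase of fatty acid synthesis (chr11:84219844-84220722), they were 17.8, 15.1 and 7.55 against 1.19, 0.30 and 0.45. That the cluster values of these 3 members lay far above those of the other granule-like nuclei follows from this choice.

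Members near list genes followed more than one pattern. At Egr2 the cluster had 3.01, 3.18 and 2.77 CPM, from 14, 16 and 18 cut sites, against 0.25, 0.15 and 0.26, from 4, 2 and 4. At Acvr1c it had 5.16, 9.53 and 5.70 against 0.75, 0.68 and 0.78, and at Crh (chr3:19758266-19759207) 3.44, 5.76 and 2.77 against 1.13, 0.90 and 0.52. The region of C1ql2 was open in both kinds of granule-like nuclei, 16.1, 29.2 and 19.0 in the cluster and 7.35, 4.82 and 4.93 in the others, and low in other excitatory nuclei at 1.51, 1.99 and 1.46. The region of Vwf had 8.17, 5.96 and 6.01 in the cluster and 8.60, 5.95 and 7.27 outside it, and that of Ppara 2.15, 1.99 and 4.16 against 3.89, 4.52 and 4.35. The RNA of Crh and Vwf had 0 to 3 UMIs per library in the cluster and in the other granule-like nuclei. Nor did the tallest members share a pattern: Ptprs had 4.08, 5.76 and 4.93 in the cluster and 6.78, 7.0 and 6.17 outside it, while Sec14l1 had 14, 6.36 and 13.6 against 5.97, 4.29 and 4.29.

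The members with printed sequences can be read in the same way. Gm29906, with 2 AP-1 motifs, had 6.88, 7.55 and 8.78 CPM in the cluster against 1.82, 0.98 and 1.62 in other granule-like nuclei of TG-aKO, TG-nKO and TG-tKO. Gm39631, with 1 motif, had 3.65, 4.97 and 4.31 against 0.63, 0.08 and 0.39. Gm44235, with 2, had 7.95, 6.55 and 7.70 against 2.70, 1.73 and 3.70. All 3 were higher in the cluster in each library, as were 9930038B18Rik, with 2.36, 1.79 and 6.16 against 0.69, 0.15 and 0.78, and Gm20631, with 7.74, 7.94 and 8.17 against 3.64, 1.96 and 3.18. Gm45876, also with the motif, had 2.15, 1.19 and 4.62 against 2.83, 1.96 and 1.82, lower in the cluster in TG-aKO and TG-nKO. The region of 1700030C10Rik, without the motif, had 3.87, 5.76 and 3.08 against 4.14, 1.35 and 2.21, lower in the cluster in TG-aKO and higher in the others. Windows not printed also went both ways. With the motif, Gm44172 had 8.17, 9.73 and 7.55 in the cluster against 0.19, 0.90 and 0.78, while Gm35135 had 1.72, 1.99 and 1.08 against 1.63, 1.51 and 1.75. Without it, Gm42461 had 16.5, 14.3 and 13.1 against 3.77, 1.43 and 2.34. Among members at least 2-fold higher in the cluster in all 3 libraries, 3 of 6 with an exon window and 2 of 3 with a RefSeq window held TGANTCA, numbers too small to compare.

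RNA was not used to choose the members and can be compared with TG. The question was whether genes near members differed in RNA level from TG more often than genes at large. RNA of each class was summed per library as CPM, 5 was added, and a log2 ratio of 0.5 or more to TG was counted. The 3 comparisons share the TG library and are given side by side, not as repeats of each other. Xist nuclei made up 58.0% of called nuclei in WT, 41.2% in TG, 58.2% in TG-aKO, 82.0% in TG-nKO and 57.9% in TG-tKO, and the part of that difference in the ratios was not tested. Of 1727 nearest genes within 100 kb, 958 had at least 50 UMIs over the 5 libraries in granule-like nuclei.

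In granule-like nuclei 69 of these 958 genes were higher than in TG in TG-aKO (7.20%, against 4.21% of all 15548 genes), 81 in TG-nKO (8.46%, against 4.27%) and 42 in TG-tKO (4.38%, against 1.65%). Lower were 6 (0.626%, against 0.367%), 8 (0.835%, against 0.45%) and 6 (0.626%, against 0.379%). The median log2 ratio of the nearest genes was 0.09, 0.06 and 0.02, beside 0.11, 0.09 and 0.03 for all genes, so as a whole they did not stand above the others. Genes nearest to regions listed in WT and TG alone were higher in 4.98, 5.85 and 1.76%. Among the 242 tested genes of the 678 members at least 2-fold higher in the cluster, 29, 26 and 21 were higher (12, 10.7 and 8.68%) and 0, 0 and 1 lower. Since these members were picked for the cluster, whose nuclei are in the sums, that share is a description. Without the cluster it was 16, 19 and 5 of 229 (6.99, 8.30 and 2.18%), against 3.49, 3.23 and 0.51% of all genes.

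The counts moved with the pseudocount and the scaling. With 1 added in place of 5, 177, 174 and 77 genes were higher (18.5, 18.2 and 8.04%), against 15.6, 14.1 and 4.92% of all genes, and 18, 23 and 21 lower (1.88, 2.40 and 2.19%), against 1.11, 1.53 and 1.47%. Median-of-ratios size factors brought the median of all genes from 0.11, 0.09 and 0.03 to -0.0020, -0.0032 and -0.0081. They left 32, 38 and 40 genes higher (3.34, 3.97 and 4.18%), against 1.57, 2.3 and 1.41% of all genes. Lower were 29, 28 and 6 (3.03, 2.92 and 0.626%), against 1.65, 1.58 and 0.534%. With that scaling the nearest genes in TG-aKO and TG-nKO were thus about as often lower as higher. Leaving out the cluster, 46, 56 and 11 of 928 genes were higher (4.96, 6.03 and 1.19%), against 3.49, 3.23 and 0.51% of all genes, and 0, 7 and 1 were lower, against 0.292, 0.285 and 0.172%. The count in TG-tKO thus went from 42 genes to 11 without the cluster's nuclei. In other excitatory nuclei 51, 66 and 19 of 1160 genes were higher (4.40, 5.69 and 1.64%), against 3.21, 3.41 and 0.751% of all 18782 genes, and 7, 11 and 5 were lower (0.603, 0.948 and 0.431%), against 0.335, 0.458 and 0.282%. Their median log2 ratio was 0.07, 0.06 and 0.02. With a pseudocount of 5 and CPM scaling, a larger share of nearest genes than of all genes was higher in both classes. Most nearest genes were within 0.5 of TG. Genes nearest to regions listed in WT and TG alone were higher in 4.48, 4.73 and 1.55% in other excitatory nuclei. In granule-like nuclei without the cluster they were higher in 4.95, 4.95 and 0.909%. In both of these comparisons the members' genes were close to that mirror set in TG-aKO and TG-tKO and somewhat above it in TG-nKO. With the same pseudocount and CPM scaling, the counts of lower genes were too small to read against the background. With size factors the share of lower genes in granule-like nuclei was above that of all genes in TG-aKO and TG-nKO.

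**Figure D4:**
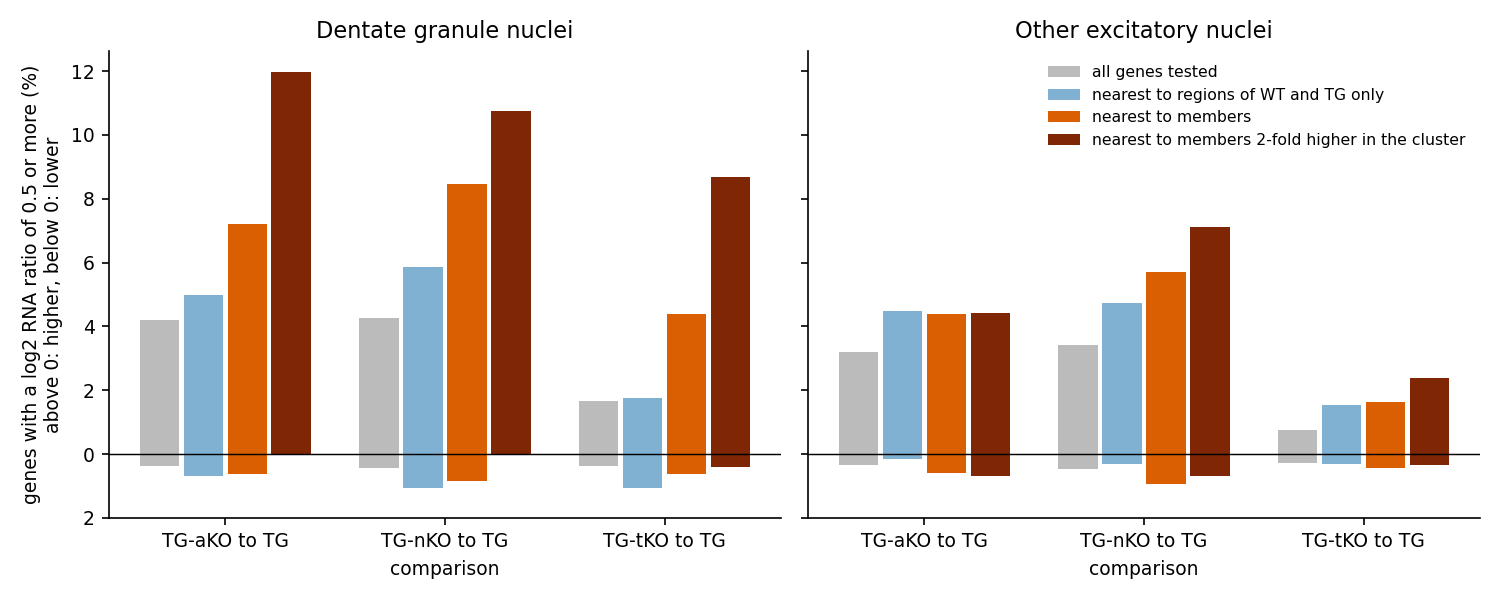
Percent of genes (y axis) with a log2 RNA ratio to TG of 0.5 or more, higher above the 0 line and lower below it, in 3 comparisons that share TG (x axis), for granule-like nuclei on the left and other excitatory-like nuclei on the right. In granule-like nuclei the bars of genes nearest to members stand at 7.20, 8.46 and 4.38%, above the grey bars of all genes at 4.21, 4.27 and 1.65%.

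Of the 4 granule genes with the highest ratios, Fbln2 and Gm30551 are among the genes that lead the cluster, so neither is a separate result. Fbln2, an extracellular matrix fibulin with a member 33.1 kb away, was at 3.90 CPM in WT, 3.32 in TG, 19.3 in TG-aKO, 32.7 in TG-nKO and 28.5 in TG-tKO, with log2 ratios to TG of 1.55, 2.18 and 2.01. Adamts18, a secreted matrix protease with 2 members, the closer 8.50 kb away, was at 6.48, 3.32, 16.1, 21.0 and 20.3, and without the cluster at 6.31, 3.32, 7.23, 3.48 and 8.35. Once the cluster's nuclei were left out, Adamts18 was above both WT and TG in TG-aKO and TG-tKO alone. Parp8, a mono-ADP-ribosyltransferase, was at 31.3, 35.1, 101, 86.9 and 121, and without the cluster still at 69.0, 55.3 and 79.1 in the knockout libraries against 34.6 in TG. Gm30551 was at 8.89, 9.81, 22.8, 39.1 and 56.5.

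**Figure D5:**
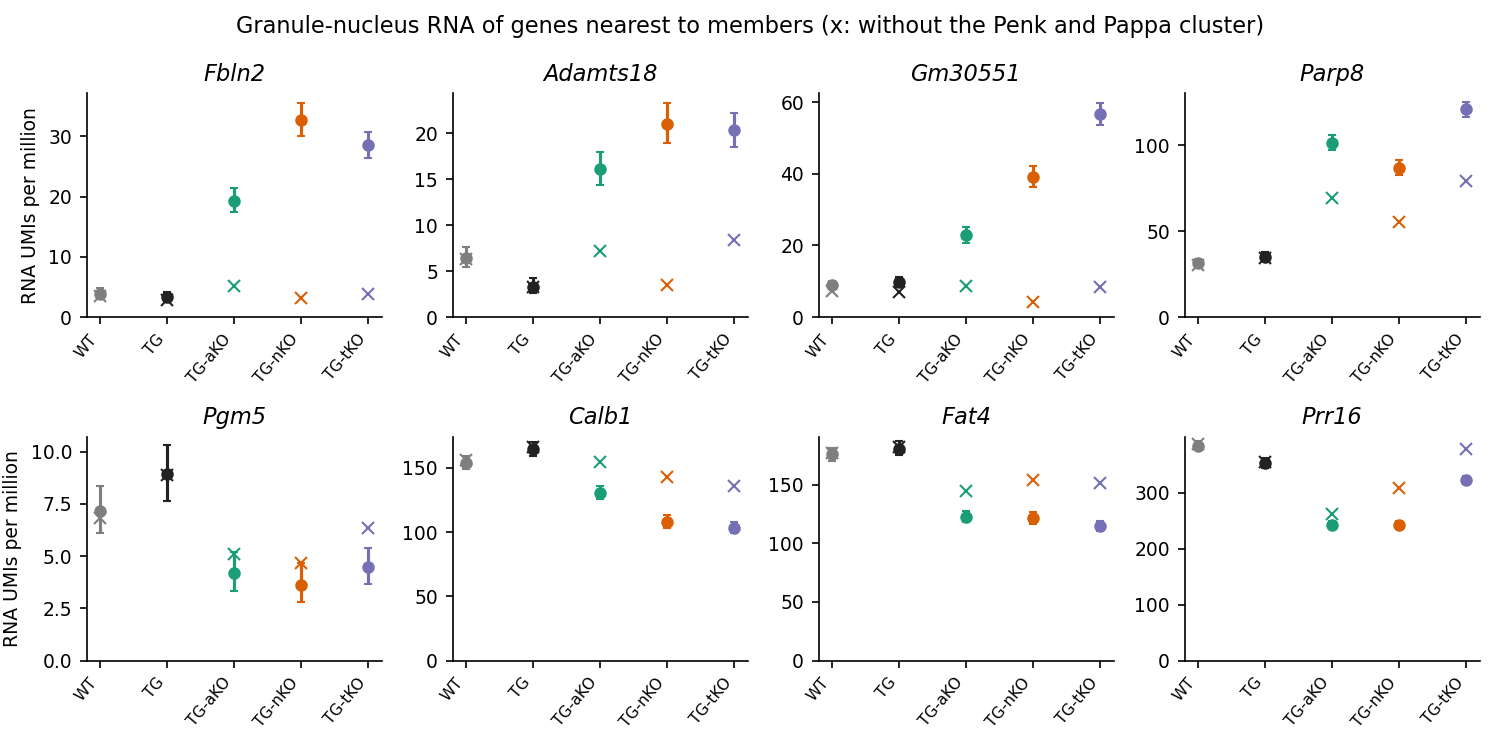
RNA CPM in granule-like nuclei (y axis, starting at 0, its own scale in each panel) in the 5 libraries (x axis), with 95% counting intervals as bars. Crosses leave out the Penk and Pappa cluster, which Fbln2 and Gm30551 lead, and Parp8 then stands at 69.0, 55.3 and 79.1 in the knockout libraries, where its full values are 101, 86.9 and 121.

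The lowest ratios were smaller. Pgm5, a phosphoglucomutase-like protein of cell junctions, was at 7.18 CPM in WT, 8.91 in TG, 4.19 in TG-aKO, 3.64 in TG-nKO and 4.47 in TG-tKO, log2 ratios of -0.60, -0.69 and -0.55. Fat4, a large cadherin, was at 176, 181, 123, 122 and 115. Calb1 was at 154, 165, 131, 108 and 104, with ratios of -0.32, -0.59 and -0.64, and without the cluster at 156, 166, 154, 143 and 136. All 3 were lower in each knockout library than in WT and TG. They were nearer to TG outside the cluster, where Pgm5 was at 5.10, 4.66 and 6.34 in the knockout libraries and Fat4 at 145, 154 and 151. Prr16 was at 383, 353, 243, 242 and 322, so that TG-tKO was nearer to TG, and without the cluster it was at 388, 354, 262, 308 and 377.

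Of the list genes, Acvr1c RNA in granule-like nuclei was at 53.7 in WT, 45.7 in TG, 106 in TG-aKO, 114 in TG-nKO and 104 in TG-tKO, but it too leads the cluster. C1ql2 was at 44.0, 49.0, 91.9, 90.3 and 75.8, and without the cluster at 43.8, 48.9, 85.6, 93.3 and 62.1. Rgs4 was at 3.59, 2.82, 6.09, 7.16 and 7.02, and without the cluster at 3.42, 2.60, 5.03, 3.95 and 3.20, so that TG-tKO was then below WT. Pcdh15, the gene with the most members, was at 62.3, 42.7, 71.7, 88.6 and 72.6, above both WT and TG in each knockout library. Without the cluster it was at 62.8, 43.2, 42.6, 29.8 and 40.2. Each knockout library was then below WT, while TG-aKO and TG-tKO were close to TG and TG-nKO was below it. The genes of the tallest members were within 0.5 of TG on the log2 scale: Slitrk5 was at 50.0, 51.0, 43.4, 42.8 and 43.7, and Ptprs at 130, 132, 144, 158 and 168.

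In other excitatory nuclei the highest ratios belonged to non-coding transcripts. 6530403H02Rik was at 223 CPM in WT, 149 in TG, 279 in TG-aKO, 281 in TG-nKO and 328 in TG-tKO, log2 ratios of 0.88, 0.89 and 1.11. It is among the genes that lead an excitatory cluster with 2.33% of all kept nuclei in WT, 2.10% in TG and 4.13, 4.37 and 4.53% in the knockout libraries. The part of that cluster in the values of 6530403H02Rik was not tested. Gm15414 was at 15.7, 12.5, 29.4, 32.5 and 16, 4930555F03Rik at 8.45, 7.75, 23.0, 18.5 and 12.8, and 4930570B17Rik at 9.97, 8.44, 19.2, 20.1 and 11.1. In these last 3 the value of TG-tKO was the nearest to TG. At the low end, Nxph1, a secreted ligand of neurexins, was at 15.8, 29.1, 11, 8.92 and 25.5, and Pdzrn3, a ubiquitin ligase, at 121, 230, 146, 130 and 118. TG was the highest of the 5 libraries for both, so the knockout libraries were below TG while WT was too. Nxph1 is among the genes that lead 2 inhibitory clusters, and the part of inhibitory nuclei or their RNA in its values was not tested. Pdzrn3 is among the genes that lead 3 excitatory clusters. One of them held 4.63% of nuclei in TG and 1.91, 2.70, 1.36 and 3.27% in WT, TG-aKO, TG-nKO and TG-tKO. The largest held 4.10% in TG and 2.75, 4.24, 3.88 and 3.26% in the same order, so it was not highest in TG. The smallest was highest in TG, at 0.449%. The part of these clusters in the values of Pdzrn3 was not tested. Tiparp, a target of the aryl hydrocarbon receptor, was at 40.6, 35.8, 20.3, 19.4 and 24.7, and Frmd6 at 129, 142, 95.4, 88.9 and 94.1, each below both WT and TG in all 3 knockout libraries. Cnr1, with its low member, was at 73.1, 60.2, 77.4, 85.2 and 77.1, and Spock1 at 414, 399, 403, 144 and 438, low in TG-nKO alone.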

How the data were processed

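The authors deposited, for each of 5 hippocampal Multiome libraries, 1 matrix of RNA UMI counts per gene and transposase cut-site counts per peak in each nucleus. Per the submitters' processing notes, Cell Ranger ARC 2.0.0, Seurat and mm10 were used; the peak-calling settings are not given in the sources used here. Of the gene identifiers, 99.6% were in GENCODE vM21, and 86.6% of listed positions held that gene's 5′ end on GRCm38, whose coordinates are used. The members and gene lists were chosen with earlier results of these data known.

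Peaks were merged across libraries, and heights are CPM, cut sites relative to those in all listed peaks of the library or class. A nucleus needed 500 detected genes or more and a mitochondrial share of UMIs up to 5%, likely doublets were removed with Scrublet at 0.8% per 1000 nuclei, leaving 3888 to 7001 nuclei per library, and Leiden clusters (scanpy 1.11.5, leidenalg 0.10.2, Python 3.11.15, resolution 1, 40 components) were named X-like from at least 3 fixed markers. The limits of that naming were tightened after the clusters were seen, and unnamed clusters (104 to 336 nuclei per library) were left out of the classes. The libraries held 101931020 to 159532813 UMIs. Merging and ratios were tested on simulated data.

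Named in the text are the 12 highest members, the 8 genes with the most members, list genes, the 4 highest and 4 lowest RNA ratios per class, the members with the steepest class ratios, and members high in the cluster. Motifs were planned in the central 300 bases of each region, but without a genome of this build only RefSeq windows and GENCODE exons could be read. Alternatives changed the merging, the distal limit, the libraries required, doublets, classes, pseudocount, scaling, filters and distance.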

Additional observations from a re-analysis of the deposited data

How the results depend on the processing

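No paired analysis was possible because there was a single library for every genotype, without numbers that could pair any of them. Of 96 values recomputed, 37 moved by less than their limit and 59 by more, and where no construction shows why, the cause was not tested. All alternatives for the cluster, the counts of nearest genes and the exon motif were chosen after seeing the data. Ignoring a library admits more regions: 6508 without library TG-aKO, 6570 without WT and 5044 without TG, beside 2501. Values below are for TG-aKO, TG-nKO and TG-tKO in turn. By the share of nuclei with a cut site in a fixed depth range, class medians were 1.08, 1.13 and 1.05 in granule-like, 1.06, 1.09 and 1.02 in other excitatory and 0.880, 0.879 and 0.827 in inhibitory nuclei. With classes from the highest marker score they were 0.989, 1.01 and 0.983 in other excitatory nuclei and 0.899 in inhibitory nuclei of TG-nKO. With doublets kept, inhibitory nuclei of TG-tKO had 0.938. The members' ratio of the Penk and Pappa cluster to other granule-like nuclei was 1.96, 1.21 and 1.48 with doublets kept (largest overlap), 2.03, 3.34 and 2.48 for the purest such cluster, 1.87, 2.37 and 1.89 for granule-like nuclei with a Penk UMI against those without, 2.11, 3.23 and 2.23 in 1 range of cut sites, and 1.93, 3.45 and 1.98 in Xist nuclei. Adding 2 CPM left 386 members 2-fold higher. The median RNA ratio of nearest genes in granule-like nuclei was 0.12 and 0.078 (TG-aKO, TG-nKO) with a pseudocount of 1, -0.046, -0.045 and -0.014 with size factors, 0.049 and 0.039 (TG-aKO, TG-nKO) with at least 10 UMIs, and 0.10 and 0.082 (TG-aKO, TG-nKO) within 20 kb. In other excitatory nuclei it was 0.13, 0.12 and 0.046 with a pseudocount of 1, -0.033, -0.024 and -0.0033 with size factors, 0.040, 0.037 and 0.014 with at least 10 UMIs, and 0.051 and 0.015 (TG-nKO, TG-tKO) with classes from marker scores. The count of nearest genes 0.5 or more above TG in granule-like nuclei was 177, 174 and 77 with a pseudocount of 1, 32 and 38 (TG-aKO, TG-nKO) with size factors, and 11 (TG-tKO) without the cluster. Searching motifs in whole regions was not run, because no genome was at hand. Heights of members rest on a median of 144 to 175 cut sites, and cluster values of single members on far fewer.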
